A study of Mus musculus with 7 samples.

Results

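The 3 adult libraries were the members, taken by their labels from the 7 libraries of a series on mouse cortex, and they are described here across all genes on their own. Each came from a piece of cortical plate, the label used for the tissue, of a female C57BL/6J mouse aged 10.5 months that carried the transgene CamK II-Cre tg. Replicates 1 and 3 were Atr fl/+, with 1 floxed Atr allele, and replicate 2 was Atr +/+. CamK II is a kinase of excitatory forebrain neurons, so a Cre driven by its promoter is expected to act in those neurons and to leave glia and vessels of the same tissue with an intact allele. The protein made from Atr is a checkpoint kinase that acts when DNA replication stalls. Whether the libraries stem from 3 separate animals is not stated in the labels, and every p-value here therefore speaks of these samples only.

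The adult cerebral cortex holds glutamatergic projection neurons in layers, local GABAergic interneurons, astrocytes, oligodendrocytes with their myelin, microglia and a dense bed of capillaries. Bulk RNA from a dissected piece mixes all of them, and tissue at its border (meninges outside, striatum, hippocampus and the choroid plexus of the ventricle inside) can enter a piece. In bulk RNA, fewer cells of a type and less RNA per cell cannot be told apart. Neurons also switch on immediate early genes within minutes of firing, and these genes are widely used as markers of recent activity.

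The libraries held 29996018, 27327927 and 28029645 counts in replicates 1, 2 and 3, over 53801 genes. Of these, 29181 had a count in any library, 24620 were at 0 in all and 18125 passed the filter on low counts. Each pair of libraries differed by more than sampling noise, with chi-square values of 4.15 to 6.63 per degree of freedom. Sex-linked genes fitted the labelled sex: Xist, the RNA that silences 1 X chromosome in female cells, had 50.9, 43.7 and 50.2 RPKM (reads scaled to gene length and library size), and the Y-linked genes Ddx3y, Eif2s3y, Kdm5d, Usp9y and Zfy1 were at 0 counts in all 3. Tsix and the Y-linked Uty had mean levels of 0.0132 and 0.00249 RPKM. Atr itself had 0.821, 0.904 and 0.788 RPKM, so the library without a floxed allele had the highest level.

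Transcripts of the mitochondrial genome led the adult cortex. The 13 mitochondrial protein-coding genes took 7.34 ± 0.39% of counts (SD, n = 3) and 21.1 ± 0.793% of summed RPKM, and 12 mitochondrial genes, rRNAs included, stood among the 20 highest of all genes by mean RPKM. mt-Co1, the catalytic subunit of cytochrome oxidase, was first with 13240 ± 741 RPKM. mt-Atp6 of the ATP synthase followed with 8827 ± 645 RPKM, then mt-Cytb of complex III with 8721 ± 433 RPKM. The 2 mitochondrial rRNAs took a further 0.83%, 0.714% and 0.823% of counts in replicates 1, 2 and 3. The lowest of the 13 coding genes had a mean of 54.8 RPKM.

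Another 7 of the 20 highest entries were nuclear pseudogenes whose sequence is a copy of mitochondrial DNA. In all, 14 pseudogenes with counts matched mitochondrial transcripts at 90% identity or more over at least 50% of their length, and they took 3.2 ± 0.152% of counts and 13.4 ± 0.41% of summed RPKM. Of these, 7 lie within a few kilobases on chromosome 1 and 3 close together on chromosome 2, and 5 were identical to the mitochondrial gene over the aligned bases. Gm28437 had 7170, 6944 and 6491 RPKM and its twin mt-Co3 a mean of 6868 RPKM. Gm10925 had 9871, 10430 and 9034 RPKM beside 8827 for mt-Atp6. How reads with several matches were counted is not given in the sources used here, so the levels of both members of such a pair are uncertain.

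The copies on both chromosomes are shown beside mt-Co1 because their identity differs and so does their level. Gm29216 on chromosome 1 (GRCm38 chr1:24616069-24616188, minus strand) is 99.8% identical over 483 aligned bases and had a mean of 11110 RPKM. Gm13340 on chromosome 2 (chr2:22588355-22588474, minus strand) is 97.6% identical over 1545 bases and had 2760 ± 214 RPKM. Each stretch holds 120 bases of the GENCODE M21 transcript, 5′ to 3′, and capitals mark the bases at which copy and gene differ, 1 in the first pair and 6 in the second.
Gm29216: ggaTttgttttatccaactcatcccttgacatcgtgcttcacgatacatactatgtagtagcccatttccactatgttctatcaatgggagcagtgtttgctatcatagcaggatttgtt
mt-Co1: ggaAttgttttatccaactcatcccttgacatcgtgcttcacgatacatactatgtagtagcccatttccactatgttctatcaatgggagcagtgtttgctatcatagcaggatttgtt
Gm13340: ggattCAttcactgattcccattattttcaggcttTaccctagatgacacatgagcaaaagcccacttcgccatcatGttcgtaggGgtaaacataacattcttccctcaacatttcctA
mt-Co1: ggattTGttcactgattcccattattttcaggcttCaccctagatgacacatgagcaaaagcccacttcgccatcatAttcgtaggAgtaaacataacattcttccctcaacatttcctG
The first mt-Co1 stretch is chrM:6390-6509 and the second chrM:6501-6620, both on the plus strand.

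Nuclear protein-coding genes other than ribosomal proteins took 84.1%, 84.8% and 85.3% of counts. Long non-coding RNAs took 1.49 ± 0.0661% and processed pseudogenes that are not mitochondrial copies 1.49 ± 0.0129%. The genes of cytosolic ribosomal proteins took 0.713 ± 0.0433%. Counting per length changed the order of these classes: processed pseudogenes, which are short, rose to 6.8 ± 0.152% of summed RPKM while long non-coding RNAs stood at 0.886 ± 0.029%. Among 9397 long non-coding genes, 349 had at least 1 RPKM in all 3 libraries. Of these, chosen after their values were seen, the unnamed 2900097C17Rik had 249 ± 6.26 RPKM and the maternally expressed Meg3 226 ± 17.8 RPKM. Peg13, an imprinted RNA, had 67.0 ± 1.99 RPKM and Malat1, an abundant nuclear RNA, 43.5 ± 0.674 RPKM. Each other class took about 0.1% of counts or less.

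**Figure D1:**
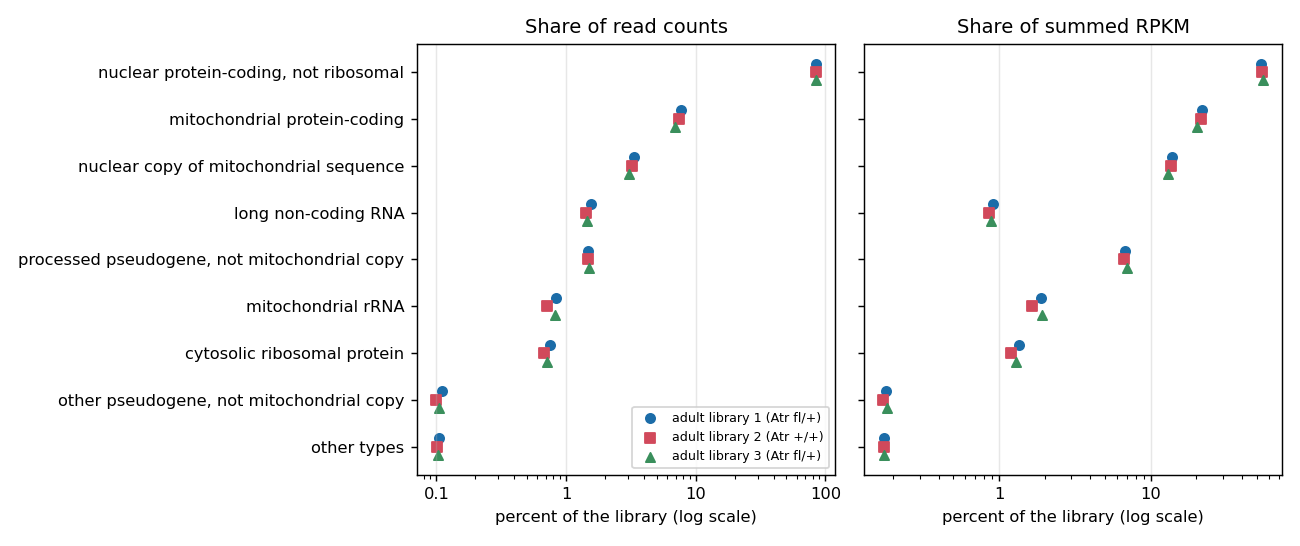
Share of each adult library by gene class, on log axes, from read counts (left) and from summed RPKM (right); each point is 1 library. The libraries lie close together in every class, and nuclear copies of mitochondrial sequence move from 3.2% of counts to 13.4% of summed RPKM.

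At a threshold of 1 RPKM in all 3 libraries, 14055 genes were expressed, 11497 of them protein-coding. Of these, 262 had at least 100 RPKM in each library and 26 at least 1000, and 952, 953 and 989 genes made up 50% of the counts of replicates 1, 2 and 3. The 100 highest genes of any pair of libraries shared 96 or 97 members. Ranked per length, 62 of the 100 highest genes were also among the 100 highest by RPM, which is not scaled to gene length.

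The 20 highest genes outside the mitochondrial genome were 10 of its nuclear copies and 10 others. Fth1, the heavy chain of the iron store ferritin, led the protein-coding genes with 1866, 1805 and 1730 RPKM. Calm2, which encodes the calcium sensor calmodulin, had 934, 1043 and 988 RPKM. Cpe, which trims neuropeptide precursors, had 755 ± 18.6 RPKM. Nrgn, the neuronal calmodulin-binding protein neurogranin, had 737, 638 and 680 RPKM and was highest in replicate 1. Sparcl1, a secreted protein of astrocytes, had 609 ± 23.7 RPKM. Atp1b1, a subunit of the sodium pump, had 532 ± 23.7 RPKM and Psap, the precursor of lysosomal saposins, came last of the 20.

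The remaining 2 of the 20, Gm12328 and Gm37421, are processed pseudogenes of 197 and 132 bases. Gm12328 had 1304 ± 13.5 RPKM and Gm37421 1020 ± 16.01 RPKM. Their best match among protein-coding transcripts was the ubiquitin gene Ubb, at 96.5% and 94.6% identity, while Ubb itself was listed at 29.0 RPKM. Among other pseudogenes above 100 RPKM, Gm44389 (314 ± 16.4 RPKM) and Gm14000 (166 ± 4.5 RPKM) also matched Ubb best, and Gm8648 (156 ± 4.42 RPKM) matched Gm8797, which is listed at 0. Others matched genes with high levels of their own: Gm11223 is 99.8% identical to Stmn1 over its whole length and had 146 ± 1.7 RPKM, and Tpt1-ps3 is 100% identical to Tpt1 and had 120 ± 7.25 RPKM beside 156 for Tpt1. Levels of such pairs are uncertain for the same reason as the mitochondrial copies.

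**Figure D2:**
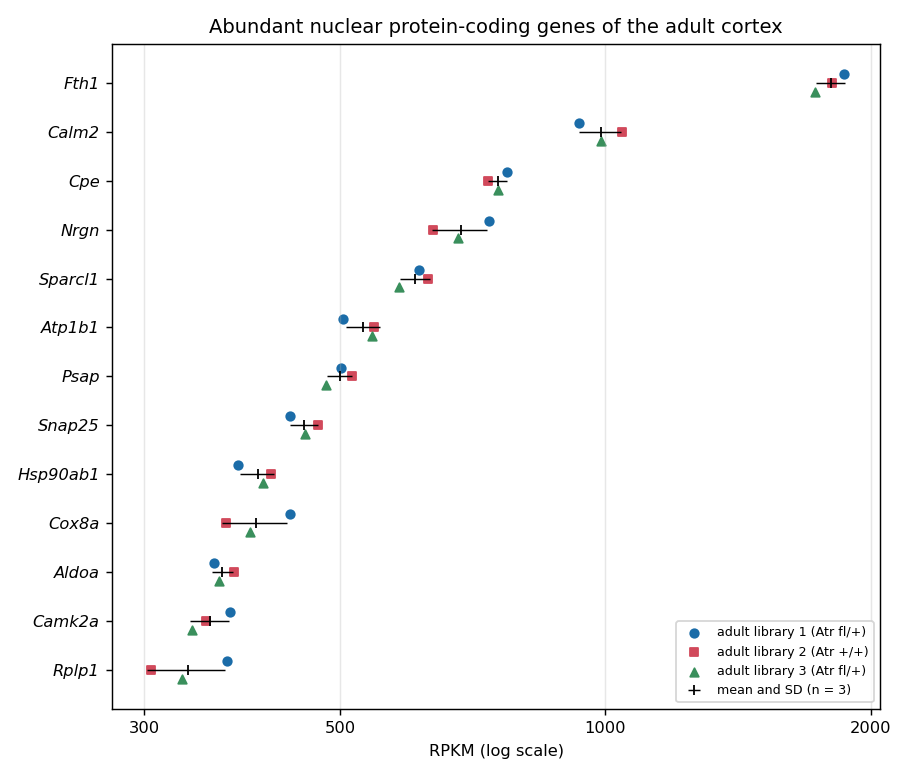
RPKM on a log axis of abundant nuclear protein-coding genes that the text names; coloured points are the 3 libraries and black marks the mean with its SD (n = 3). Fth1 stands alone near 1800 RPKM, and the spread between libraries is small beside the distance from Fth1 to Calm2 and from Calm2 to Cpe.

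Cell content was read from marker lists, whose sums depend on how many and which genes a list holds and are not shares of cells. The pan-neuronal list had the largest sum of the cell type lists. Its 15 genes summed to 1897, 1971 and 1903 RPKM. Snap25, a membrane fusion protein of the synapse, had 456 ± 16.5 RPKM, the vesicle calcium sensor Syt1 241 ± 12.9 and the vesicle protein Syn1 203 ± 7.14. The 12 glutamatergic genes summed to 1569 ± 63.5 RPKM, with Nrgn, Camk2a (356 ± 18.1 RPKM) and the vesicular glutamate transporter Slc17a7 (186 ± 6.71 RPKM) at the top. Camk2a encodes the kinase subunit whose family names the Cre driver.

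Both sets of cortical layer markers were present. Of upper layers, Lamp5 had 63.1 ± 2.67 RPKM, Calb1 23.6 ± 0.49 and Rasgrf2 20.7 ± 0.558. Of deep layers, Rprm had 29.7 ± 3.17 RPKM, Hs3st4 17.4 ± 0.257 and Parm1 14.6 ± 1.6. The defining deep layer factors Fezf2 and Bcl11b had 10.9 ± 0.82 and 8.54 ± 1.5 RPKM. Interneuron genes summed to 539 ± 19.1 RPKM: the peptides Sst, Cck and Npy had 134 ± 6.51, 130 ± 9.39 and 90.2 ± 8.27 RPKM. Cck is also made by other cortical neurons.

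Markers of all glial types were detected. Astrocyte genes summed to 1208 ± 36.5 RPKM, led by the glutamate transporter Slc1a2 (253 ± 4.1 RPKM), Aldoc (212 ± 15.3 RPKM) and Clu (178 ± 3.22 RPKM). Myelin and oligodendrocyte genes summed to 1126 ± 27.6 RPKM, with Mbp at 277 ± 4.95 and Mobp at 112 ± 5.37. Precursor genes summed to 91.1 ± 6.14 RPKM, led by Olig1 (32.5 ± 3.89 RPKM), Sox10 (12.9 ± 0.7 RPKM) and Tnr (12.7 ± 0.495 RPKM). Olig1 and Sox10 are also made by mature oligodendrocytes. Microglial genes summed to 296 ± 10.7 RPKM, with the lysosomal protease gene Ctss at 51.9 ± 2.71 and the complement gene C1qa at 31.6 ± 1.35 RPKM.

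Vessels were seen in endothelial and mural genes. The endothelial list summed to 294 ± 11.4 RPKM, of which Bsg, which other cells also express, gave 136 ± 7.62; Itm2a had 26.2 ± 1.26 RPKM and the glucose transporter Slc2a1 24.1 ± 1.07. The mural list of pericytes and smooth muscle summed to 74.7 ± 3.77 RPKM, with Vtn at 25.4 ± 1.14, Rgs5 at 23.7 ± 2.17 and Acta2 at 5.67 ± 0.576 RPKM. Globins carried the blood list: Hbb-bs had 103 ± 6.41 RPKM, Hba-a2 76.0 ± 3.46 and Hba-a1 67.0 ± 2.0, while the lymphocyte genes Cd8a, Ms4a1 and Cd3e had mean levels from 0.00598 to 0.00968 RPKM. The globin genes are near-identical pairs whose reads can be split between them. Perivascular macrophage genes summed to 3.83 ± 0.232 RPKM, with Stab1 at 1.61 ± 0.0886, Mrc1 at 0.594 ± 0.058 and Pf4 at 0.449 ± 0.226.

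Sums of these neuron, glia, endothelial and mural lists differed between libraries by little: the highest library stood above the lowest by a factor of 1.03 in upper layer genes to 1.14 in oligodendrocyte precursor genes. A few abundant genes weigh most in such sums. For the median RPKM of the members, the same factor ran from 1.06 in interneuron genes to 1.26 in deep layer genes. Within these lists the order of the libraries was not shared. Of the tested microglial genes, 15 of 18 were highest in replicate 1, as were 13 of 18 astrocyte and 13 of 20 endothelial genes, whereas 12 of 14 deep layer genes were lowest in replicate 1. Over all 18125 tested genes, 6704 were highest and 6466 lowest in replicate 1.

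Lists of other tissue were uneven. Genes that mark hippocampus summed to 77.8 ± 5.03 RPKM (Ociad2 23.5 ± 1.42, Wfs1 21.1 ± 1.5 and Cyp7b1 5.7 ± 0.348 RPKM), and those of thalamus and hypothalamus to 14.6 ± 1.19 RPKM (Rora 6.26 ± 0.0469, Prkcd 2.19 ± 0.221 and Plekhg1 2.13 ± 0.0721 RPKM). The olfactory bulb list summed to 5.7 ± 0.142 RPKM, with Ntng1 at 2.75 ± 0.115, Gng8 at 0.919 ± 0.163 and Cdhr1 at 0.68 ± 0.124. Amygdala, claustrum and subplate genes summed to 164 ± 7.07 RPKM, with Dkk3 at 109 ± 6.46, Nnat at 14.9 ± 0.954 and Etv1 at 10.1 ± 1.05 RPKM. Striatal genes summed to 113, 128 and 177 RPKM and choroid plexus and ependymal genes to 44.0, 23.0 and 328 RPKM in replicates 1, 2 and 3. In both of these lists replicate 3 stood well above the others. Ttr alone gave 32.0, 12.0 and 306 RPKM of the choroid plexus sums. The ratio of highest to lowest library was 14.3 for the sums and 2.41 for the median RPKM of the members. The median of the tested members' own ratios was 3.32. Of these lists, no member was at 0 in all libraries.

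Among housekeeping lists, energy genes differed less between libraries than ribosomal protein genes did, with highest-to-lowest ratios of the sums of 1.04 and 1.03 against 1.17. Nuclear genes of the respiratory chain summed to 3102 ± 68.8 RPKM, led by Cox8a (402 ± 34.1 RPKM), Atp5a1 (240 ± 6.97 RPKM) and Atp5b (230 ± 7.81 RPKM). Glycolytic genes summed to 2108 ± 31.8 RPKM, led by Aldoa (368 ± 10.2 RPKM), Ldhb (235 ± 6.97 RPKM) and Aldoc. The 33 listed ribosomal protein genes summed to 2722, 2332 and 2460 RPKM, led by Rplp1 (336 ± 33.9 RPKM), Rps15 (228 ± 25.6 RPKM) and Rpl4 (183 ± 5.73 RPKM), and 32 of the 33 were highest in replicate 1.

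**Figure D3:**
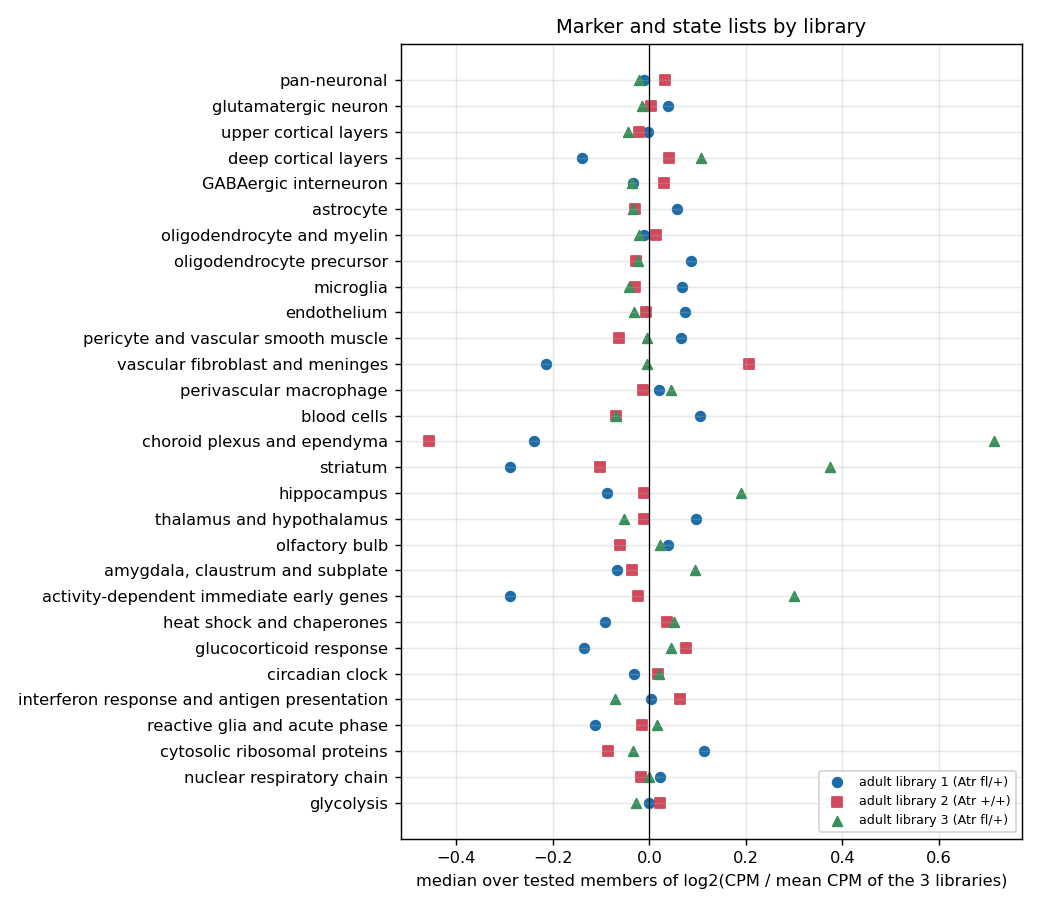
Median over the tested members of each list of log2 of the library's TMM-scaled counts relative to library size over the mean of the 3 libraries; each point is 1 library and 0 is the mean. Neuron, glia, endothelial and mural lists lie within about 0.1 of 0 apart from deep layer genes. Fibroblast and meningeal genes run from -0.21 in replicate 1 to 0.21 in replicate 2. Striatal and immediate early genes spread from below -0.2 in replicate 1 to above 0.2 in replicate 3, and choroid plexus genes from -0.46 in replicate 2 to 0.71 in replicate 3.

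The second question was which genes differ between the 3 libraries by more than counting noise. A Poisson likelihood ratio test in edgeR, which allows for counting error alone, called 4044 of 18125 genes at a Benjamini-Hochberg adjusted p under 0.05, or 22.3%. Because deep counts make small differences detectable, a second rule also required that the highest library exceed the lowest by 1.5 times in TMM-scaled counts relative to library size (CPM); 373 genes met both, or 2.06%. The common biological coefficient of variation (CV) was 6.06%, and the median highest-to-lowest ratio over tested genes 1.13. Without replicate 1 the first count was 1395 and the second 160, and without replicate 3 they were 2615 and 192.

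The calls differed with depth. The share of genes that the noise test called rose from 1.35% under 1 CPM to 67.5% at 100 CPM and above, but of the latter the 1.5-fold rule kept 0.363%. From 1 to 5 CPM the share under both rules was 5.59%. By class, both rules together called 274 of 14229 nuclear protein-coding genes other than ribosomal proteins (1.93%), 38 of 1010 long non-coding genes (3.76%), 38 of 2320 processed pseudogenes (1.64%) and 0 of the 13 mitochondrial coding genes. Of the 373 genes, 101 stood out as high in replicate 3, 74 as low in replicate 2, 64 as low in replicate 1 and 61 as high in replicate 1; 36 were high in replicate 2 and 37 low in replicate 3.

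Among 122 genes that met both rules with a mean of at least 5 CPM, the 30 with the largest excess CV (the spread left once counting variance is taken off) fell into few groups. A single stretch of chromosome 4 held 14 and scaffolds that the annotation joins to no chromosome held 3. Of the other 13, Egr2, Cyr61 and Sik1 are immediate early genes, Drd2, Adora2a and Pde10a belong to the striatal list, and Ttr, Clic6 and Kl to the choroid plexus list. The rest were Hjurp, Car12, Gm47283 and Gm21887.

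**Figure D4:**
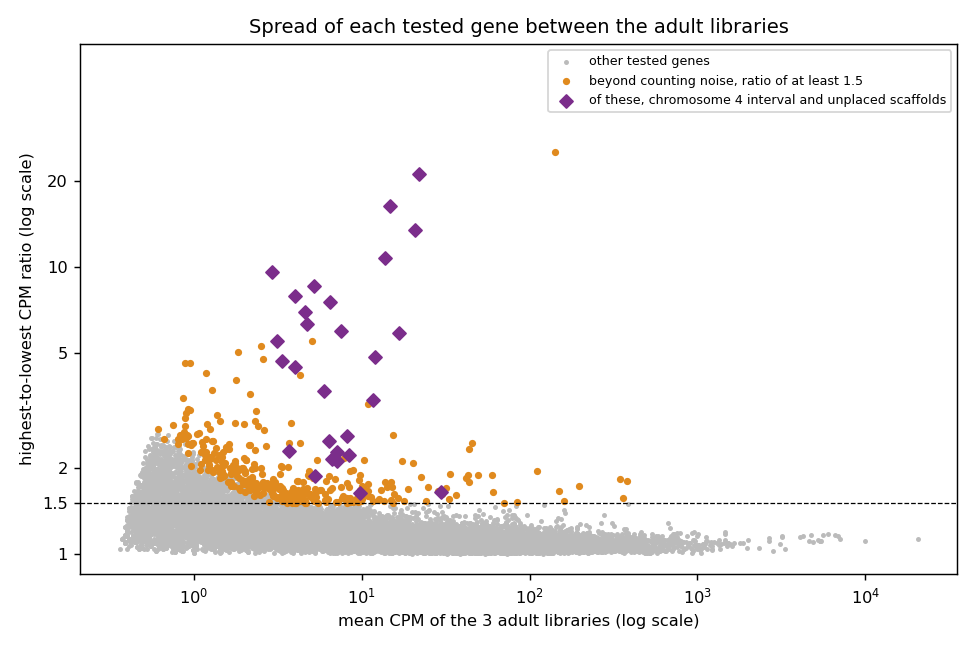
Mean CPM of each of the 18125 tested genes against the ratio of its highest to its lowest library, both on log axes; the dashed line marks a ratio of 1.5. Purple diamonds, the called genes of the chromosome 4 stretch and of the scaffolds, reach a ratio of 21.1 at CPM values where most other genes lie under 1.5, and Ttr is the orange point at 25.2.

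Immediate early genes differed between the libraries in 1 common direction: 25 of 30 were called by the noise test and 16 also met the 1.5-fold rule (53.3%, against 2.06% of all tested genes). List members and rules were chosen with earlier results of these data known. The shares of this list and of the striatal, choroid plexus and meningeal lists are therefore descriptions only. All 30 were highest in replicate 3 and 26 of them lowest in replicate 1; over all tested genes 19.6% followed that order from replicate 1 through 2 to 3. Their median ratio was 1.52, against 1.13 over all tested genes. Their summed level was 448, 551 and 711 RPKM. Without replicate 1 only 3 members met both rules and without replicate 3 only 2, while 16 did without replicate 2.

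Arc, which controls receptor traffic at active synapses, had 249, 331 and 455 CPM in replicates 1, 2 and 3, a ratio of 1.83, and was with 113 ± 34.4 RPKM the highest of the list. Egr1, a zinc finger transcription factor used as an activity marker, had 277, 372 and 496 CPM. Its relative Egr2 had 9.01, 13.96 and 23.4 CPM, the largest ratio of the list at 2.59 (edgeR Poisson test, adjusted p = 2.9e-41). Fos, a subunit of the AP-1 factor, had 28.4, 45.8 and 53.8 CPM (ratio 1.89, edgeR adjusted p = 7.6e-51). In each of these 4 genes replicate 3 was highest and replicate 1 lowest.

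The other 12 members that met both rules kept replicate 3 highest and replicate 1 lowest. Among transcription factors, Fosb had a ratio of 1.78, Fosl2 of 1.78, Junb of 1.51, Egr3 of 1.65, Egr4 of 1.62, Nr4a1 of 1.53 and Nr4a3 of 1.88. Nr4a1 had 45.4 ± 9.58 RPKM and stood behind Arc and Egr1 in level. Homer1, a scaffold of the postsynapse whose short form is induced by activity, had 149, 183 and 258 CPM. Sik1, a kinase of the CREB pathway, had 11.4, 16.5 and 24.2 CPM, and Cyr61, a secreted matrix protein, 5.24, 7.44 and 11.5 CPM. The phosphatase Dusp5 had a ratio of 1.62 and the pseudokinase Trib1 of 1.7. Jun, by contrast, had a ratio of 1.02 and did not pass the noise test, and neither did Nptx2 (1.11), Klf4 (1.36), Gadd45g (1.22) and Rgs2 (1.12).

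Promoters of these genes are printed because the members moved together. Of the 16 genes, 10 had a RefSeq window (build GRCm38.p6, 250 bases before to 50 after a start site), searched on both strands for 3 motifs. The CArG box, bound by serum response factor, was found in Egr2 and Dusp5, in 0 of 12 other list members with a window and in 1.63% of 32851 windows. TGACG, the core of the cAMP response element, was found in 9 of the 10 genes, in 7 of 12 other list members with a window and in 20.8% of all windows; the full element TGACGTCA, which contains it, was in 0 of the 10, in 2 of the 12 and in 1.79% of all. Some genes have several windows (Egr2 5), so shares per gene and per window differ. A match is a description of letters, not of binding.
Egr2, chr10:67537316-67537615, plus strand, CArG box in capitals: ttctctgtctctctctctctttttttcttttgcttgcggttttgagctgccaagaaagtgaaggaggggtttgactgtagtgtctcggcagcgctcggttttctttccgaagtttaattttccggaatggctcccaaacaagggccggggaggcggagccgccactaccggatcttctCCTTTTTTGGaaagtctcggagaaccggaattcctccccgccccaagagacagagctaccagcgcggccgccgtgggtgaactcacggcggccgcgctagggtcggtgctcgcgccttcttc
Dusp5, chr19:53528895-53529194, plus strand, CArG box in capitals: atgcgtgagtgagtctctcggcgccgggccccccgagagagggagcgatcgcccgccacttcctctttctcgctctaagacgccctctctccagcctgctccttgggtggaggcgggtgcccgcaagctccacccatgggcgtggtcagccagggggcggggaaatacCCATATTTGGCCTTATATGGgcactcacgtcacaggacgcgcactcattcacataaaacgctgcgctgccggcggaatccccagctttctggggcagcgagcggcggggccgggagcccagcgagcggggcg
Fos, chr12:85473640-85473939, plus strand, TGACG in capitals: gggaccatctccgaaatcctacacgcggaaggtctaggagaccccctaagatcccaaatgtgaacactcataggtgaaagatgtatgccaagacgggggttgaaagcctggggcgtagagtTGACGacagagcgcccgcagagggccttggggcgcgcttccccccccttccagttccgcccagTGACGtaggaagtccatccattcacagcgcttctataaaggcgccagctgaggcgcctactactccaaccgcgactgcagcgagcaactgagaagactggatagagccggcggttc
In the windows shown, the Egr2 box starts 72 bases before the start site and the 2 Dusp5 boxes 82 and 72 bases before it. The 2 TGACG matches of Fos start 129 and 66 bases before its start site. Another window of Egr2, not shown, also holds a CArG box.

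Genes of the striatum followed. Of 14 tested list members, 13 were called by the noise test and 10 also met the 1.5-fold rule (71.4%, against 2.06% of all genes). All 14 were highest in replicate 3, as were 6007 of all 18125 tested genes. Penk, the enkephalin precursor, had the highest level of the list, 26.1, 34.5 and 49.3 RPKM, followed by the dopamine-signalling phosphatase inhibitor Ppp1r1b (26.8 ± 4.7 RPKM) and the adenylyl cyclase Adcy5 (18.7 ± 1.27 RPKM). The dopamine receptor Drd2 had 5.37, 6.63 and 11.7 CPM (ratio 2.17, edgeR adjusted p = 1.2e-15). Adora2a, the adenosine receptor of the same neurons, had 6.38, 6.7 and 12.4 CPM. Pde10a, a phosphodiesterase of medium spiny neurons, had 81.5, 93.5 and 158 CPM (ratio 1.94, edgeR adjusted p = 2.3e-179). Replicate 3 stood apart from both other libraries in these 3 genes. Further members under both rules were Tac1 (ratio 1.55), Drd1 (1.71), Rgs9 (1.86), Syndig1l (1.54) and Rarb (1.61). Cortical neurons express several of these genes too. Without replicate 3 the count under both rules was 0, and without replicate 1 it was 7.

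Replicate 3 was thus highest both for immediate early and for striatal genes, and the part of striatal tissue in the first pattern was not tested. Replicate 3 was also highest in 10 of 14 deep layer genes and 10 of 16 heat shock genes. In other lists it was not, with 3 of 18 astrocyte and 1 of 18 microglial genes highest there. Of 14 hippocampal markers 9 were highest in replicate 3, against 6007 of 18125 tested genes. Both rules were met by 3 of the 14 (21.4%, against 2.06% of all tested genes). Lct and Dsp met both rules with their highest level there (ratios of 1.62 and 1.57), while Tdo2 had 1.0, 1.99 and 1.95 CPM and was low in replicate 1. Nr4a2, of the amygdala, claustrum and subplate list, had 28.9, 24.7 and 46.9 CPM.

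The choroid plexus is the epithelium that makes cerebrospinal fluid, and its transcripts were highest in replicate 3. Ttr, the thyroxine carrier that is its leading transcript, had 32.0, 12.0 and 306 RPKM, and its ratio of 25.2 was the largest of all genes with at least 5 CPM that met both rules. Kl, the anti-ageing hormone co-receptor Klotho, had 6.91, 6.0 and 19.9 CPM, and the channel gene Clic6 4.31, 1.66 and 9.17 CPM (ratio 5.53, edgeR adjusted p = 5.5e-34). Prlr had 1.1, 1.36 and 5.26 CPM, Kcnj13 0.868, 0.958 and 3.52 CPM, Otx2 0.801, 0.516 and 2.2 CPM and Aqp1 0.768, 0.368 and 1.71 CPM. All 7 were highest in replicate 3, and with Ccdc153 of ependyma (ratio 1.84) 8 of 13 tested members met both rules (61.5%, against 2.06% of all genes). The ependymal genes Foxj1 (2.23 ± 0.336 RPKM) and Enkur (2.08 ± 0.42 RPKM) were next to Ttr in level and did not pass the noise test. Car12, in no list, had 7.61, 7.48 and 15.8 CPM. Without replicate 3 the count under both rules was 2.

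**Figure D5:**
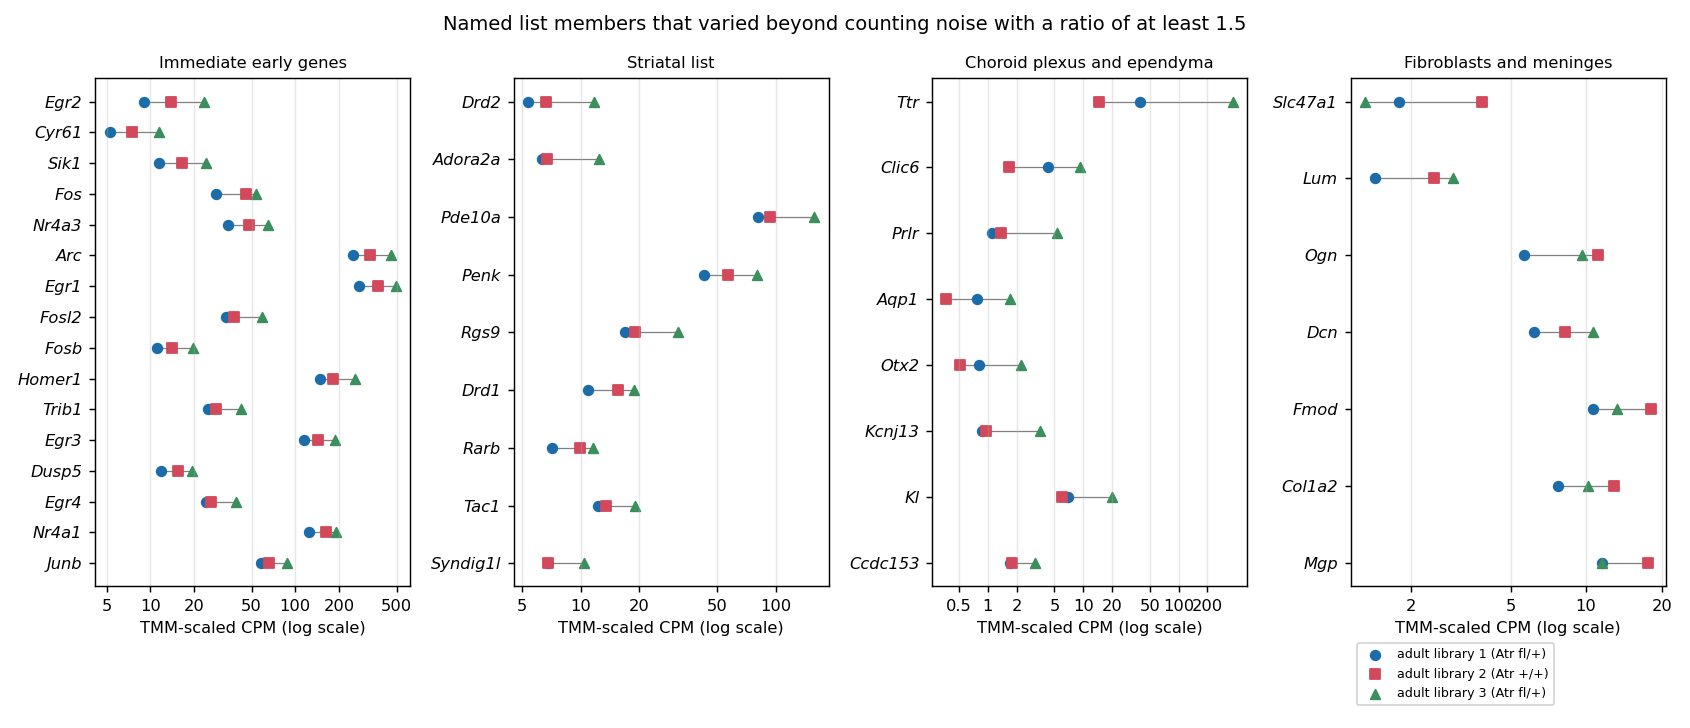
TMM-scaled CPM on log axes of members that met both rules in 4 lists, apart from genes not reported here; each point is 1 library and the grey line joins the lowest and the highest. Replicate 3 is rightmost in all plotted immediate early, striatal and choroid plexus genes, whereas most fibroblast and meningeal genes peak in replicate 2.

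Genes of vascular fibroblasts and meninges took another order. Of 16 tested, 11 were called and 7 met both rules (43.8%, against 2.06%). Of the 16, 11 were highest in replicate 2, none in replicate 1 and 5 in replicate 3, and 11 were lowest in replicate 1. Over all 18125 tested genes, 5414 were highest in replicate 2 and 6466 lowest in replicate 1. Ptgds, which makes prostaglandin D2 in the leptomeninges and in oligodendrocytes, had 189, 280 and 236 RPKM and a ratio of 1.49, just under the rule. Next by level were Nov (27.96 ± 2.52 RPKM) and Mgp, an inhibitor of calcification (9.72, 14.8 and 9.83 RPKM). The matrix proteoglycans Fmod and Ogn had 10.7, 18.2 and 13.3 CPM and 5.68, 11.2 and 9.63 CPM. Dcn and Lum had ratios of 1.71 and 2.05, Col1a2 of 1.68 and the transporter Slc47a1 of 2.91. The count under both rules was 2 without replicate 1 and 3 without replicate 2.

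In the other lists of response states no member met both rules (2.06% of all tested genes did). The share called by the noise test ran from 4.55% to 80% against 22.3% of all tested genes. Because that share rises with count level, it is not compared between these lists. Of 16 heat shock genes 10 were called and 0 met the 1.5-fold rule, and 12 were lowest in replicate 1. Hsp90ab1 had 403 ± 17.98 RPKM and Hspa8 224 ± 12.9. Of 15 tested glucocorticoid genes 12 were called and 0 met both rules, with Mt2 at 76.9 ± 5.04 RPKM and the kinase Sgk1 at 19.0, 27.9 and 27.7 RPKM, lowest in replicate 1. Of 18 clock genes 11 were called and 0 met both rules. Of 22 interferon and antigen presentation genes 1 was called, and of 11 tested genes of reactive glia 4, with 0 under both rules in either list. Gfap, the filament of reactive astrocytes, had 45.3 ± 5.07 RPKM and the cytokine gene Tnf was at 0 counts in all 3 libraries. B2m, the light chain of class I antigen presentation, led the interferon list with 83.1 ± 1.54 RPKM.

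Small differences within cell type lists were often beyond counting noise, and 22.3% of all tested genes were called. The test called 12 of 15 pan-neuronal, 14 of 18 astrocyte, 10 of 14 deep layer, 4 of 18 microglial and 2 of 14 mural genes. Over all tested genes the share called rose from 6.21% at 1 to 5 CPM to 67.5% at 100 CPM and above. The lists differ in level, with a median gene at 108 RPKM in the pan-neuronal and 1.56 RPKM in the mural list. Their shares are therefore not compared with each other. Both rules were met by 2.06% of all tested genes. In lists of this size the absence of such genes, or a single one, cannot be read against that share. No gene met them among the pan-neuronal, glutamatergic, upper and deep layer, astrocyte, oligodendrocyte, precursor, endothelial and mural lists. Tac1, which is also in the striatal list, did among interneuron genes, Itgam (4.84, 4.79 and 3.13 CPM) among microglial genes, F13a1 (2.3, 2.87 and 1.46 CPM) among perivascular macrophage genes and the neutrophil gene S100a9 (1.7, 0.368 and 0.568 CPM) among blood genes. Rps21 (101, 66.4 and 85.6 CPM) was the only ribosomal protein gene of its list under both rules. Pomc, of the hypothalamus list, had 2.47, 0.663 and 0.711 CPM.

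A pattern of another kind was a stretch of chromosome 4 from 41809083 to 42856771 (GRCm38), 1.05 Mb whose bounds are the outermost called genes and were set after their values were seen. Of 26 tested genes there, 20 met both rules and all 20 were lowest in replicate 2. Together the 20 genes had 291, 76.0 and 278 CPM in replicates 1, 2 and 3. Gm10600 had 957, 42 and 919 counts (ratio 21.1, edgeR Poisson test, adjusted p = 3.3e-243). Gm5859, an unprocessed pseudogene, had 665, 37 and 587 counts, and the non-coding Gm17167 907, 61 and 832. Gm2163 had 583, 50 and 557 counts. Replicates 1 and 3 were nearly level in all 4 and replicate 2 was far below.

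Further genes of the stretch differed less. Gm13301, Gm13302 and Gm3892 had ratios of 8.6, 7.57 and 5.89, Gm10593 of 4.86, Gm12394 of 3.69, Gm3883 of 3.45 and Gm21093 of 2.58. Fam205a2, Fam205a3 and Fam205a4, members of 1 gene family, had ratios of 2.26, 2.1 and 2.22. The stretch is a block of repeated genes: of the 20 called genes, 18 had a match over at least 50% of their length to another gene of the stretch, 16 of them at 99% identity or more and the lowest at 98.5%. Counts of single genes there are therefore uncertain. If reads with several matches were counted at each copy, the sum holds them more than once. The 20 genes are thus not 20 separate observations. On the scaffolds, 8 of 20 tested genes met both rules, all 8 lowest in replicate 2, and together had 55.6, 14.6 and 51.9 CPM. These included a second copy of Fam205a4 (244, 103 and 228 counts). The transcripts of the scaffold genes were not compared by sequence. Of 2317 bins of 1 Mb with a tested gene, only 2 held 5 or more called genes, and the bin that starts at 42 Mb of chromosome 4 was first with 16 of 25.

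Replicate 2 was also the only Atr +/+ library, so genotype and library cannot be told apart. The bounds of the chromosome 4 stretch were set from these same counts, and its genes under both rules were all lowest in replicate 2. Genotype calls inside the stretch are therefore no separate result. A quasi-likelihood test in edgeR of Atr fl/+ against Atr +/+, with 2 libraries against 1 and 1 residual degree of freedom that is lent strength by the spread across genes, compared these libraries. The lone +/+ library is assumed to vary as the fl/+ libraries do, so neither the p-values nor the SE values stand for a replicated genotype effect. Each SE was derived from the log2 fold change and the test statistic, and is not a measured spread within both groups. The test called 30 of 18125 genes at an adjusted p under 0.05 (0.166%), 27 higher in fl/+ (0.149%) and 3 lower. Of the 27, 17 lay in the chromosome 4 stretch, 7 on scaffolds and 3 elsewhere. At an unadjusted p under 0.05 there were 505 genes.

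Gm10600 had the largest difference of the 30, with 4.38 on the log2 scale for fl/+ over +/+ (SE 0.184; adjusted p = 2.7e-16 by edgeR). Gm5859 had 3.98, Gm17167 3.73 and Gm2163 3.41. Gm13301, Gm13302, Gm3892 and Gm10593 had 3.05, 2.9, 2.55 and 2.23. A scaffold gene with a clone-based name had 323, 49 and 280 counts and a log2 fold change of 2.52 (SE 0.226). The tenth by adjusted p, Hjurp, is the chaperone that places centromeric histone and lies on chromosome 1; it had 58.1, 23.9 and 54.3 CPM and a log2 difference of 1.24 (SE 0.113; adjusted p = 1.4e-08 by edgeR). All 10 were lower in replicate 2 than in both other libraries. The other calls outside the stretch and the scaffolds, named after their values were seen, were Ttr and Clic6, lowest in the +/+ library, and Slc26a7, Rabif and Slc47a1, highest there. The log2 fold change of Ttr was 3.8 (SE 0.628), but its fl/+ libraries themselves had 39.0 and 371 CPM, and those of Clic6 4.31 and 9.17 CPM.

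Atr itself had 582, 584 and 522 counts and 19.4, 21.5 and 18.5 CPM. Its log2 fold change of fl/+ against +/+ was -0.18 (SE 0.123; adjusted p = 1 by edgeR), a test with a lone +/+ library that does not show equal levels, and the noise test did not call Atr (ratio 1.16, edgeR Poisson adjusted p = 0.13). Of 28 tested genes within 2 Mb of Atr on chromosome 9, 6 were called by the noise test and 1 met both rules, beside 22.3% and 2.06% of all tested genes. With limma-voom 29 genes were called over all, 29 of them among the 30, and with DESeq2 21, of which 20 were among the 30. The log2 fold change of Atr stayed between -0.21 and -0.15 over all settings and left-out libraries.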

How the data were processed

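The report describes the adult libraries of the series; the embryonic ones were not used. Total RNA was isolated with Tri Reagent and libraries were made with the TruSeq stranded mRNA kit, per the labels' protocols. Per the submitters' processing notes, reads were handled with featureCounts 1.5.0, TopHat2 2.1.0 and bcl2fastq 1.8.4 on build GRCm38. Not given in the sources used here are the strand setting, the release of the annotation and what was done with multi-mapping reads. Read counts per gene are whole numbers as the authors deposited them. The authors also deposited RPM values, which equal counts scaled to the library total in the file, and RPKM values, scaled by gene length as well. RPM served only to compare rankings.

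Gene types and positions came from GENCODE M21 on GRCm38, which held 53706 of the 53801 genes; 66 rows had no symbol. Counts were scaled with TMM and filtered with filterByExpr in edgeR 4.0.16 (R 4.3.3). Genes varying between libraries were called with a Poisson likelihood ratio test over the 3 libraries, Benjamini-Hochberg adjusted p under 0.05, and a second rule added a highest-to-lowest ratio of at least 1.5. Atr fl/+ was compared with Atr +/+ by edgeR's quasi-likelihood test, with DESeq2 1.42.0 and limma 3.58.1 as alternatives; other scalings, filters and leaving out each library were tried. Both tests were checked on simulated data. Lists are described by counts and medians with no test of their own, since list members, rules and the genes named were chosen with earlier results of these data known. Named genes were the 20 highest outside the mitochondrial genome, the 3 highest of each list and members at 0, the 30 with the largest excess CV, state genes under both rules, sex check genes and the 10 lowest adjusted p for genotype. Some genes that this rule names are not reported here, though counts and sums over lists include them. Copies were found with BLAST 2.17.0. Genes with at least 50% of their exon bases under exons of the opposite strand took 0.373 to 0.383% of counts; reads of such pairs may not be told apart. With 3 counts as a floor, 0 counts allow up to 0.1 to 0.11 CPM, for counting error only.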

Additional observations from a re-analysis of the deposited data

How the results depend on the processing

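The genes called beyond noise numbered 3808 to 4067 over other scalings, filters and without mitochondrial genes, but 1395 to 3150 with 1 library left out, and those that also met the 1.5-fold rule 120 with a mean of at least 5 CPM required, where fewer genes are tested, 370 to 456 in the other settings and 160 to 254 with 1 library left out. Under both rules the left-out libraries gave 2 to 16 immediate early genes, 0 to 11 striatal, 2 to 10 choroid plexus and 2 to 6 meningeal genes, and the 5 CPM minimum left 3 choroid plexus genes. Without the low-count filter the genotype test called 76 genes; the cause was not tested. With that exception it called 21 to 30, and 19 to 27 in the chromosome 4 stretch and on scaffolds under all settings. At 5 RPKM 8073 genes were expressed in all libraries, and at 0.5 RPKM 16063. As the ratio of the highest to the lowest library, the median RPKM of members gave 2.41 for the choroid plexus list and 1.16 for immediate early genes. Sums gave 14.3 and 1.59, where Ttr and Arc weigh most. For deep layer genes the median gave 1.26 and the sum 1.08.

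Shares of classes differed between counts and summed RPKM by construction, since RPKM divides by length: 7.34% against 21.1% for mitochondrial coding genes, 0.789% against 1.82% for mitochondrial rRNA, 3.2% against 13.4% for nuclear copies, 84.8% against 54.1% for other nuclear coding genes, 0.713% against 1.29% for ribosomal proteins, 1.49% against 0.886% for long non-coding RNAs, 1.49% against 6.8% for processed pseudogenes and 0.105% against 0.179% for other pseudogenes. No result reversed. No paired analysis was possible because a single group was analysed and its replicate numbers pair with nothing inside it. With 3 libraries, and 1 of them alone without a floxed Atr allele, no group difference could be separated from a difference between pieces of tissue.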

Other observations

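The groupings below were chosen after the values were seen and are given with no explanation. Several genes at the distal end of the X chromosome met both rules and were highest in replicate 1. Mid1, a microtubule-associated ubiquitin ligase, had 12.7, 9.87 and 6.71 CPM in replicates 1, 2 and 3. Gm21887 had 29.6, 16.7 and 14.2 CPM and G530011O06Rik 5.01, 3.98 and 2.06 CPM. Gm47283, which the annotation places on the Y chromosome, had 67.9, 33.7 and 29.2 CPM in these female libraries, in the same order, while 5 Y-linked genes of the sex check were at 0 counts. Gm21748, also placed on the Y chromosome, met both rules in another order, with 1.2, 1.22 and 0.497 CPM.

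Apart from the chromosome 4 stretch, the bin with most genes under both rules was the clustered protocadherin region. These are neuronal adhesion genes whose choice of isoform differs from cell to cell. Both rules were met by 5 of 57 tested genes there, beside 2.06% of all. The share of all tested genes was 5.59% from 1 to 5 CPM and 2.12% from 5 to 20 CPM. The called genes did not share an order of the libraries. Pcdhgb1 had 5.64, 8.99 and 8.42 CPM, Pcdhga10 6.08, 8.8 and 9.52 CPM, Pcdhb8 5.97, 4.16 and 6.96 CPM, Pcdhb6 3.31, 3.83 and 5.26 CPM and Pcdhb4 2.27, 2.73 and 3.87 CPM. On chromosome 10 the neighbouring proteoglycan genes Dcn and Lum moved together, with Dcn at 6.21, 8.25 and 10.6 CPM and Lum at 1.44, 2.47 and 2.95 CPM.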
